A study of Mus musculus with 8 samples.

Results

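The G1 cyclins, their cyclin-dependent kinases (CDKs) and the CDK inhibitors were followed in LSCs from untreated CML mice and from CML mice treated with the tyrosine kinase inhibitor imatinib (CML-TKI mice). The 10 genes were picked by symbol for their known roles, with earlier results of these data known. All 10 were present among the 15576 genes of the table and among the 11937 genes with enough counts to be tested. They were the cyclins Ccnd1, Ccnd2, Ccnd3 and Ccne1, the kinases Cdk4 and Cdk6, and the inhibitors Cdkn1a, Cdkn1b, Cdkn1c and Cdkn2c.

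Both groups came from BCR-ABL×SCL-tTA double transgenic mice, labelled C57BL/6, in which withdrawal of tetracycline switches on BCR-ABL in stem cells through the SCL-driven transactivator. There were 4 untreated CML libraries, called CML 1, 2, 3 and 5 after their column names, and 4 CML-TKI libraries, called CML-TKI 1 to 4, from mice that the labels describe as given 400 mg/kg imatinib by gavage on alternate days for 4 weeks (the study's own text names a lower dose for its LSC comparison). The ages of the mice are not given in the sources used here, and neither labels nor methods say whether each library is a separate mouse, so that p-values measure only the spread between these libraries. RNA was taken from sorted Lin-Sca1+cKit+Flt3- bone marrow cells, which the labels describe as CD150-CD48+ in all 8 libraries, whereas the study's text gives LSCs as CD48-CD150+.

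Progression through G1 is driven by D-type cyclins, which bind CDK4 or CDK6, and then by cyclin E, which binds CDK2. Together these kinases phosphorylate the retinoblastoma protein and release E2F transcription factors, whose targets include Ccne1 itself. INK4 proteins such as p18 (Cdkn2c) bind CDK4 and CDK6 directly, while the CIP/KIP proteins p21 (Cdkn1a), p27 (Cdkn1b) and p57 (Cdkn1c) bind cyclin-CDK complexes. In hematopoietic stem cells p57 and p27 are known for keeping cells quiescent, and CDK6 for the speed at which they leave quiescence.

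Libraries held between 1041560 and 8620100 counts, with CML-TKI 3 the smallest. Genes with a count numbered 14425 to 14629 in the CML libraries and 14744, 11835, 11900 and 12614 in CML-TKI 1 to 4. The pre-ribosomal RNA Rn45s made up 20.2% to 23.1% of the counts in CML 1 to 3, 38.3% in CML 5 and 9.23% to 22.5% in the CML-TKI libraries. A count of 3 was taken as the floor and corresponded to at most 0.58 TMM-normalized CPM (counts scaled to a common library size) in a CML library and to 3.29 CPM in CML-TKI 3. Markers of other cells moved with the groups. Of 12 granulocyte markers 11 rose in CML-TKI LSCs, with a summed level of 153.4 to 258.9 CPM in the CML libraries and 1478 to 8545 CPM in the CML-TKI libraries. All 9 monocyte and macrophage markers rose (236.4 to 317.5 against 1537 to 7713 CPM), while 3 of 9 tested stem cell markers fell and the others did not pass the test (sum of 10 markers 1114 to 1459 against 48.03 to 426.6 CPM). Among 7 megakaryocyte markers 2 fell (1443 to 1736 against 62.6 to 783.8 CPM). No granulocyte, monocyte, stem cell or megakaryocyte marker in these lists was at 0 throughout a group. CML-TKI 3 alone held 32687 CPM of 8 erythroid markers, where the other 7 libraries held 59.5 to 511.2 CPM, and 287.2 CPM of 7 B cell markers, where the others held 16.9 to 23.4 CPM. Its 6 T cell markers summed to 116.2 CPM, against 0.62 to 36.9 CPM elsewhere, and Cd3e, Cd3g and Cd8a were at 0 in all CML libraries and the B cell marker Vpreb1 in all CML-TKI libraries. Of the genes of the sort, Slamf1 (CD150) fell from a mean of 32.4 to 3.33 CPM and Kit from 938.4 to 248.5 CPM. Cd48 rose from 5.05 to 103.3 CPM, each without overlap between groups, and Ly6a and Flt3 did not pass the test. Slamf1 was thus above Cd48 in every CML library and below it in every CML-TKI library, although the labels give the same gate for all libraries. Whether the gate differed between the groups was not tested. The part of these cell types in the results below was not tested, and in bulk RNA a change in the mix of cells cannot be told apart from a change of RNA per cell.

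Of the 10 genes, Ccne1 and Cdkn1a rose in CML-TKI LSCs and Cdkn1c fell. Ccne1 was 3.91-fold and Cdkn1a 9.65-fold higher, while Cdkn1c had no count in 3 of the 4 CML-TKI libraries. The 7 other genes did not pass the test, including both kinases. Passing the threshold (adjusted p under 0.05, edgeR's quasi-likelihood test) were thus 3 of 10 genes, where 10.2% of all tested genes did so. Upward calls were 2 of 10 (6.29% of all genes) and downward calls 1 of 10 (3.93%). The median log2 fold change of the 10 genes was -0.05 and their median absolute log2 fold change 0.75, against 0.52 over all tested genes.

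**Figure D1:**
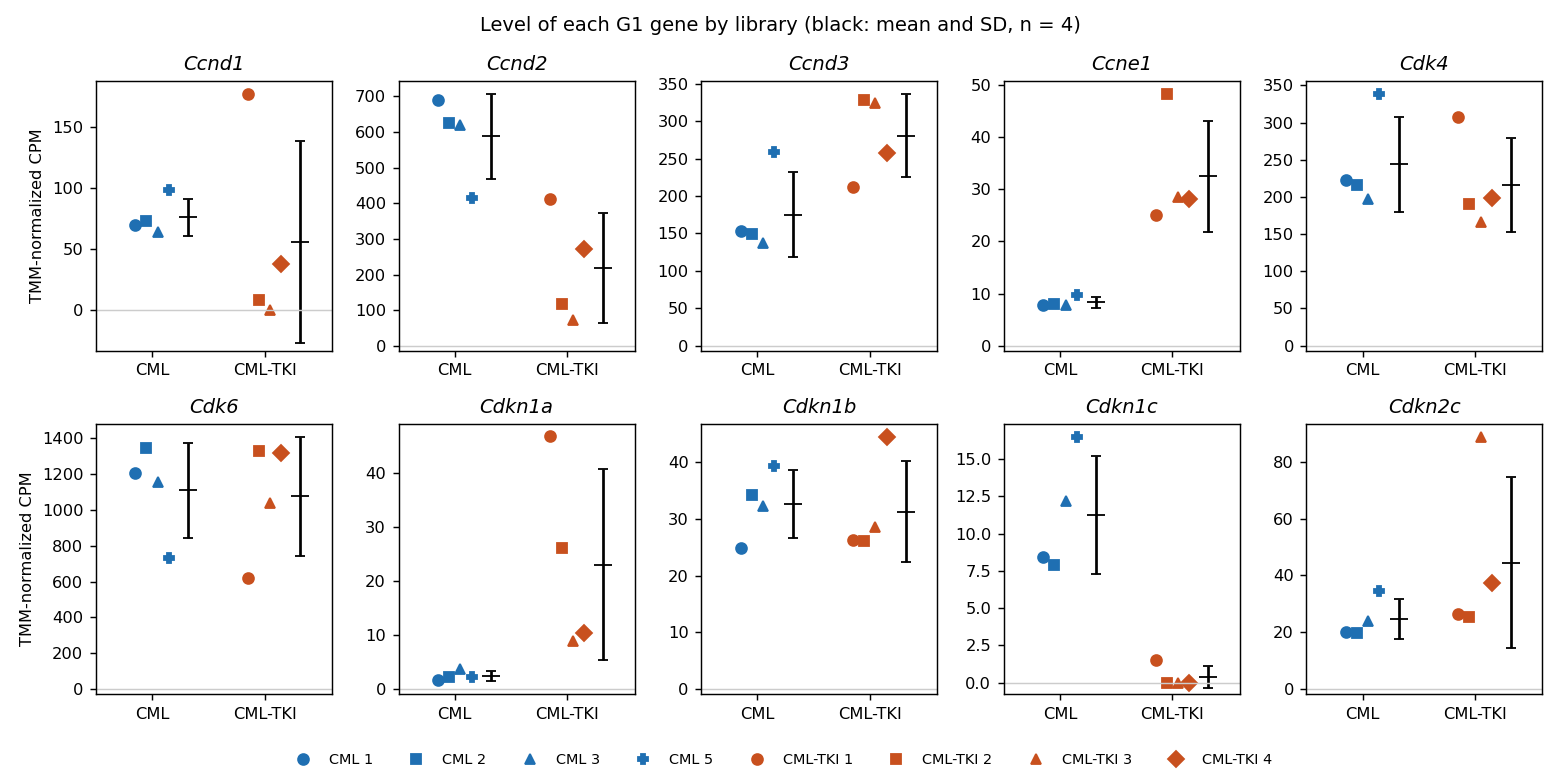
TMM-normalized CPM of the 10 genes, 1 point for each library, with the mean and SD of each group in black (n = 4). The groups do not overlap for Ccne1 and Cdkn1a (CML-TKI higher) and for Ccnd2 and Cdkn1c (CML-TKI lower), and CML 5 often sits apart from CML 1 to 3.

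For the genes that rose, the sequence before the transcription start is shown because both genes have well-known regulatory elements there. RefSeq promoter windows on GRCm38.p6, the assembly of mm10, were found for 7 of the 10 genes (not for Ccnd1, Ccnd2 and Cdkn1c), and bases in exons of the gene's transcripts in the GENCODE basic set were left off. The upstream Cdkn1a window ends at the RefSeq start, and its last 3 bases lie inside the gene span that GENCODE gives. Capitals mark the GC box GGGCGG and the p53-type half-site pair (CATG, any 6 bases, CATG), each read on both strands and without overlap between them. Ccne1 lies on chromosome 7 (minus strand), shown at chr7:38107535-38107740, and Cdkn1a on chromosome 17 (plus strand), shown before its upstream start at chr17:29090729-29090978 and before its downstream start at chr17:29093519-29093768.
Ccne1: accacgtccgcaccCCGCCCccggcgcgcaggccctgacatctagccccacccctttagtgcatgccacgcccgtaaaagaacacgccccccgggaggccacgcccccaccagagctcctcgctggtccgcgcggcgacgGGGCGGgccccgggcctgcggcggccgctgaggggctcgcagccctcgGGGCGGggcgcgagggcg
Cdkn1a, upstream start: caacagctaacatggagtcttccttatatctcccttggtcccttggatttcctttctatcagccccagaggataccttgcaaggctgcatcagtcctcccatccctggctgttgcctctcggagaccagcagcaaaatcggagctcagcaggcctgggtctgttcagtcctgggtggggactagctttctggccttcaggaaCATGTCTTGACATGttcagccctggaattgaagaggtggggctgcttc
Cdkn1a, downstream start: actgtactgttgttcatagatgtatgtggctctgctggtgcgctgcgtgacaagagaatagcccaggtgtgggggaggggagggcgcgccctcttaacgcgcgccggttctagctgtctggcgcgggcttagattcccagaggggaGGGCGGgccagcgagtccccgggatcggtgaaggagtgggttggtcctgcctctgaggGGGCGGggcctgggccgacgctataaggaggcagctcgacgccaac

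Over 32851 windows of 250 bases before an annotated start, 32.7% held a GC box and 0.49% the p53-type pair. The Ccne1 stretch held 3 GC boxes and the downstream Cdkn1a window 2, while the p53-type pair began 48 bases before the upstream start of Cdkn1a. Neither gene's windows held the E2F letters TTTNNCGC (4.28% of all windows) or the STAT letters TTCNNNGAA (7.02%) on either strand. These matches are letters in a window and not measured binding sites.

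The D-type cyclins were compared first, since they are the growth-factor-responsive entry to G1. Ccnd2, on chromosome 6 of GRCm38 from 127125162 to 127152193, had 690.5, 625.9, 620.1 and 414.2 CPM in CML 1, 2, 3 and 5 and 411.8, 115.9, 72.3 and 271.9 CPM in CML-TKI 1 to 4. Every CML-TKI library was below every CML library, but CML 5 and CML-TKI 1 were nearly level. The means were 587.7 ± 119.95 CPM and 217.97 ± 155.0 CPM (SD, n = 4), a log2 difference of -1.42 with a standard error of 0.48, which did not pass the threshold (adjusted p = 0.0907, edgeR's quasi-likelihood test). Without CML-TKI 1 the log2 fold change was -1.93 and passed (adjusted p = 0.0128), as it did with all libraries by DESeq2 (adjusted p = 0.0159) and limma-voom (adjusted p = 0.00155). Absence of overlap was seen for 4 of the 10 genes, where it was seen for 23.4% of all tested genes. By direction it was 2 of 10 higher in CML-TKI LSCs (10.3% of all genes) and 2 of 10 lower (13.1%).

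Ccnd3, on chromosome 17 from 47505051 to 47599691, had a mean that lay the other way, 175.0 ± 56.7 CPM in CML and 280.9 ± 55.9 CPM in CML-TKI LSCs (SD, n = 4). It had 153.9, 149.2, 137.4 and 259.4 CPM in CML 1, 2, 3 and 5 and 212.7, 328.8, 324.4 and 257.6 CPM in CML-TKI 1 to 4. CML 5 was the library that overlapped with the CML-TKI group. Its fitted log2 fold change, 0.68 with a standard error of 0.26, did not pass the test (adjusted p = 0.134 by edgeR), and it was 0.92 without CML 5 (adjusted p = 0.034) and 0.90 by limma-voom (adjusted p = 0.00386).

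Ccnd1, on chromosome 7 from 144929931 to 144939925, had no consistent level after treatment. The CML libraries held 69.3, 72.8, 64.4 and 98.3 CPM, whereas CML-TKI 1 held 177.2 CPM, CML-TKI 2 held 8.06 CPM, CML-TKI 3 had no count and CML-TKI 4 held 37.7 CPM. CML-TKI 1 was thus above all CML libraries and the other 3 CML-TKI libraries were below all of them. With all libraries the log2 fold change was -0.41 with a standard error of 0.97 (adjusted p = 0.834 by edgeR), and -2.18 without CML-TKI 1 (adjusted p = 0.0768). The deposited counts of Ccnd1 differed from a whole number by more than 0.001 in 7 libraries, those of Ccnd3 in 8 and those of Cdk4 in 4, and are thus estimates.

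Per kilobase of the longest RefSeq-matched GENCODE transcript, the levels of the D-type cyclins can be set side by side. In CML LSCs the levels were 92.8 ± 18.9 CPM per kilobase for Ccnd2, 82.8 ± 26.8 for Ccnd3 and 20.4 ± 4.05 for Ccnd1 (SD, n = 4), so that Ccnd2 and Ccnd3 did not differ beyond their spread. Ccnd2 was above Ccnd3 in CML 1 to 3 and below it in CML 5. In CML-TKI LSCs Ccnd3 led with 132.9 ± 26.5 CPM per kilobase, above Ccnd2 with 34.4 ± 24.5 and Ccnd1 with 14.9 ± 22.1, and the ranges of Ccnd2 and Ccnd1 overlapped. The log2 ratio of Ccnd3 to Ccnd2 CPM, in which library scaling cancels, was -2.16, -2.07, -2.17 and -0.67 in CML 1, 2, 3 and 5. It was -0.95 in CML-TKI 1, 1.501 in CML-TKI 2, 2.16 in CML-TKI 3 and -0.08 in CML-TKI 4. Ccnd3 CPM exceeded Ccnd2 CPM in 2 libraries, CML-TKI 2 and 3, and CML 5 and CML-TKI 1 made the groups overlap.

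**Figure D2:**
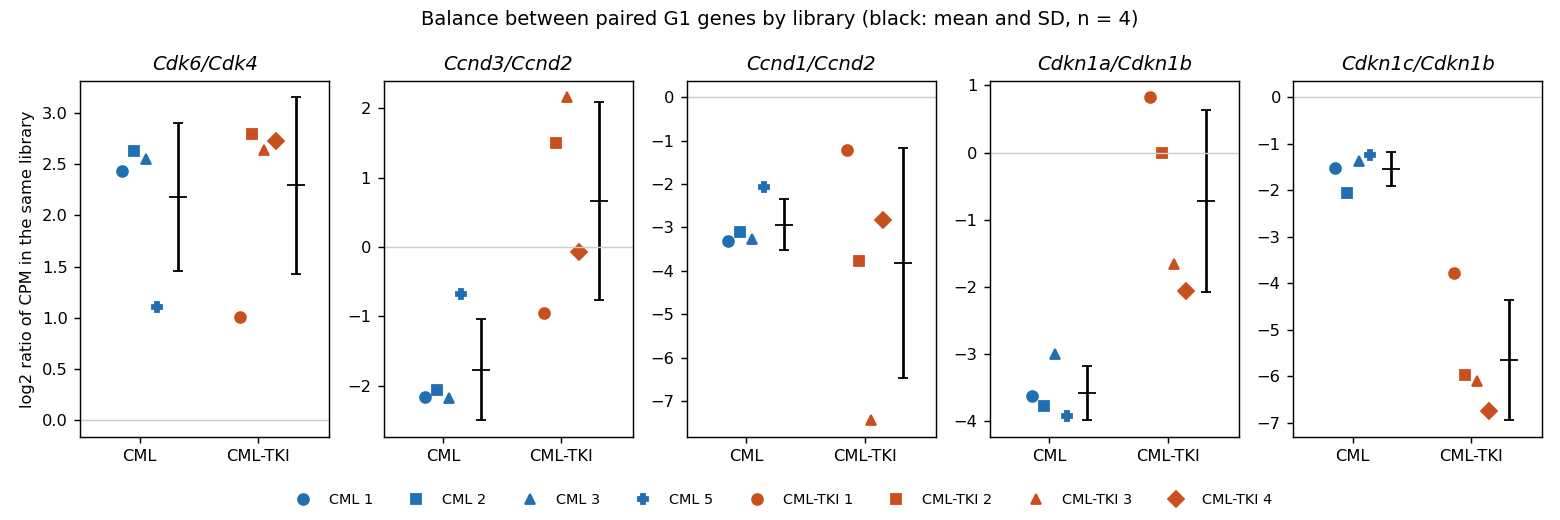
Log2 ratio of the CPM of a pair of G1 genes within the same library, 1 point for each library, with the mean and SD of each group in black (n = 4). CML 5 and CML-TKI 1 share low Cdk6/Cdk4 ratios near 1, apart from the 6 other libraries, while Cdkn1a/Cdkn1b and Cdkn1c/Cdkn1b separate the groups.

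Among the genes past the threshold, cyclin E1 had the change with the smallest standard error. Ccne1, on chromosome 7 from 38097984 to 38107534, had 7.76, 7.91, 7.73 and 9.76 CPM in CML 1, 2, 3 and 5 and 25.1, 48.3, 28.5 and 28.1 CPM in CML-TKI 1 to 4. The lowest CML-TKI library was well above the highest CML library. The means were 8.29 ± 0.98 and 32.5 ± 10.7 CPM (SD, n = 4), which in log2 units is a rise of 1.97 with a standard error of 0.33 (adjusted p = 0.00627, edgeR's quasi-likelihood test). The gene passed with each library left out in turn (adjusted p at most 0.0345) but not with CML 1 to 3 summed to a single library (adjusted p = 0.173).

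The D-cyclin kinases did not pass the test. Cdk6, on chromosome 5 from 3341485 to 3531008, had 1206, 1343, 1157 and 730.02 CPM in CML 1, 2, 3 and 5 and 619.4, 1327, 1040 and 1316 CPM in CML-TKI 1 to 4. CML 5 and CML-TKI 1 were the lowest libraries of their groups. On the log2 scale the groups differed by -0.04 (95% interval -0.69 to 0.60, adjusted p = 0.947 by edgeR). Cdk4, on chromosome 10 from 127063534 to 127067920, had 222.3, 216.4, 197.5 and 339.03 CPM in the CML libraries and 308.1, 190.3, 166.6 and 198.2 CPM in the CML-TKI libraries. Here CML 5 and CML-TKI 1 were the highest of their groups, the opposite of Cdk6. The log2 fold change was -0.17 (95% interval -0.76 to 0.42, adjusted p = 0.735 by edgeR).

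In the log2 ratio of Cdk6 to Cdk4, CML 5 (1.11) and CML-TKI 1 (1.01) lay together, and the 6 other libraries lay between 2.44 and 2.80. The groups themselves overlapped, with 2.18 ± 0.72 in CML and 2.29 ± 0.86 in CML-TKI LSCs (SD, n = 4). Per kilobase, Cdk4 (118.7 ± 31.4 CPM per kilobase in CML, 105.1 ± 30.7 in CML-TKI) and Cdk6 (96.2 ± 22.97 and 93.3 ± 28.8) did not differ beyond their spread in either group. The value for Cdk6 rests on a transcript of 11525 bases and would be higher with a shorter one.

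The CIP/KIP inhibitors did not move as a group. Cdkn1a, which encodes p21 and is a known target of p53, lies on chromosome 17 from 29090976 to 29100727. It was near the detection floor in CML LSCs, with 1.63, 2.12, 3.67 and 2.20 CPM, from 11 to 19 counts per library. CML-TKI 1 to 4 held 46.7, 26.03, 8.77 and 10.4 CPM. All CML-TKI libraries were above all CML libraries, although they differed widely among themselves and the value of CML-TKI 3 came from 8 counts. Cdkn1a rose by 3.27 log2 units with a standard error of 0.63 (adjusted p = 0.011, edgeR's quasi-likelihood test), and with each library left out the adjusted p stayed at or under 0.0495. The rise was 2.66 log2 units without CML-TKI 1, the library with the highest level. With CML 1 to 3 summed the log2 fold change was 3.31 and did not pass (adjusted p = 0.163).

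Cdkn1c, which encodes p57 and is expressed from the maternal allele, lies on chromosome 7 from 143458339 to 143461050. Its levels were 8.44, 7.91, 12.2 and 16.5 CPM in CML 1, 2, 3 and 5, from 62, 41, 63 and 120 counts. CML-TKI 1 held 1.52 CPM from 8 counts, and CML-TKI 2, 3 and 4 had no count. Against the floor of 3 counts in a library, the mean of the CML libraries was at least 12.1-fold higher than CML-TKI 2, 3.42-fold higher than CML-TKI 3 and 14.4-fold higher than CML-TKI 4. The fitted log2 fold change, -4.41 with a standard error of 1.04, passed the threshold (adjusted p = 0.0269, edgeR's quasi-likelihood test). Without CML-TKI 1, the only CML-TKI library with a count, it was -8.73 (adjusted p = 0.00271), a value set by the prior count and no measure of size. The adjusted p lay between 0.0674 and 0.081 when CML 1, 2, 3 or 5 was left out, and was 0.224 with CML 1 to 3 summed. The summed stem cell markers given above were likewise lower in all 4 CML-TKI libraries, with 426.6 CPM in CML-TKI 1 and 48.03 to 95.2 CPM in the others.

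Cdkn1b, which encodes p27, stayed within the spread of its replicates. On chromosome 6 from 134920401 to 134925513, it had 24.9, 34.2, 32.3 and 39.3 CPM in the CML libraries and 26.2, 26.03, 28.5 and 44.5 CPM in the CML-TKI libraries. For this gene the log2 fold change was -0.06 (95% interval -0.70 to 0.58, adjusted p = 0.925 by edgeR), and its sign turned under 6 of 18 alternatives. The log2 ratio of Cdkn1a to Cdkn1b had a mean of -3.58 ± 0.41 in CML and -0.72 ± 1.36 in CML-TKI LSCs (SD, n = 4), without overlap. That of Cdkn1c to Cdkn1b ran from -2.05 to -1.23 in CML and from -6.75 to -3.78 in CML-TKI LSCs, also without overlap. Zero counts enter these last values through a prior count of 2.

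In CML LSCs the CIP/KIP genes were ordered, per kilobase, as Cdkn1b (13.7 ± 2.49), Cdkn1c (5.92 ± 2.09) and Cdkn1a (1.26 ± 0.46 CPM per kilobase; SD, n = 4). Their ranges did not overlap. In CML-TKI LSCs Cdkn1b (13.1 ± 3.70) and Cdkn1a (12.01 ± 9.22) did not differ beyond their spread, and Cdkn1c (0.20 ± 0.40) was last.

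The INK4 inhibitor Cdkn2c, on chromosome 4 from 109660876 to 109667189, had 20.02, 19.7, 23.8 and 34.6 CPM in CML 1, 2, 3 and 5 and 26.2, 25.4, 88.8 and 37.5 CPM in CML-TKI 1 to 4. The groups overlapped and CML-TKI 3, the library with the erythroid and B cell transcripts, stood above the rest. A log2 fold change of 0.83 with a standard error of 0.44 did not pass the test (adjusted p = 0.269 by edgeR), and it was 0.29 without CML-TKI 3.

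**Figure D3:**
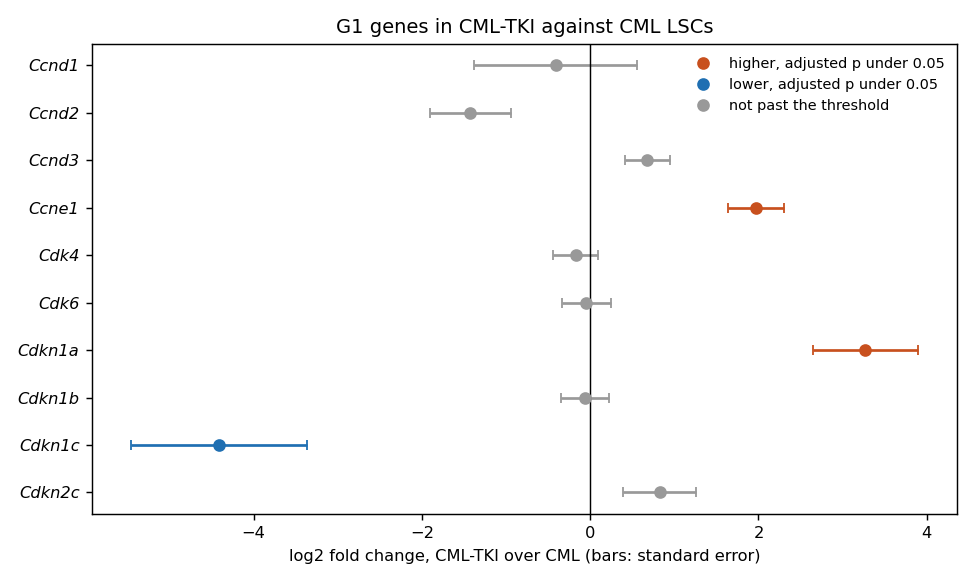
Each G1 gene's log2 fold change (CML-TKI relative to untreated CML) from edgeR's quasi-likelihood fit over all genes, with its standard error as a bar. Orange and blue mark the genes past the threshold, Ccne1 and Cdkn1a upward and Cdkn1c downward, and gray the 7 others.

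The other genes of the G1 machinery were read from a list of 30 partners and regulators, of which 28 were tested. E2f2 (log2 fold change 2.91, adjusted p = 0.00334), Skp2, which encodes the ligase subunit that marks p27 for degradation (1.59, adjusted p = 0.00799), and E2f8 (1.31, adjusted p = 0.0483 by edgeR) rose, 0 fell by this test (10 genes had an unadjusted p under 0.05, and DESeq2 called 1 downward and limma-voom 2), and 25 did not pass. These 3 of 28 stand beside 10.2% of all tested genes called in either direction and 6.29% called upward, and the number was 7 without CML-TKI 1, 2 without any other library except CML-TKI 3 and 0 with CML 1 to 3 summed. The median log2 fold change of the list was 0.24. Ccne2, the second cyclin E gene, had 12.1 to 23.9 CPM in the CML libraries and 31.1, 187.5, 21.9 and 45.5 CPM in CML-TKI 1 to 4, so that CML-TKI 2 was far above the others (log2 fold change 2.06, adjusted p = 0.0693). The cyclin E kinase Cdk2 (-0.26, adjusted p = 0.595), E2f1 (-0.37, adjusted p = 0.479) and the INK4 gene Cdkn2d (0.37, adjusted p = 0.496) did not pass the test, and neither did Rb1 (1.09, adjusted p = 0.0727).

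The untested pair, Cdkn2a and Cdkn2b, stood out after their values were seen. These neighboring INK4 genes encode p16 and p15, with p19Arf also read from Cdkn2a. Neither had a count in any CML library, in CML-TKI 3 or in CML-TKI 4. CML-TKI 1 held 119 counts of Cdkn2a (22.6 CPM) and 41 of Cdkn2b (7.79 CPM), and CML-TKI 2 held 3 and 4 counts. Signal of any size thus came from CML-TKI 1, the library with the highest Cdkn1a and Ccnd1.

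Genes of the later cell cycle were read in the same way. Of 24 S, G2 and M phase genes, 6 rose, 0 fell (8 had an unadjusted p under 0.05 by edgeR, and the list held no downward call by any tool) and 18 did not pass, with a median log2 fold change of 0.47 against -0.00026 over all tested genes. Upward calls made up 6.29% of all tested genes, and those of the list numbered 1 without CML 1, 3 without CML 2, 2 without CML 3 and 0 with CML 1 to 3 summed. The risers were Rrm2, a subunit of ribonucleotide reductase (2.13), Birc5 (1.75), Bub1 (1.24), Aurka (1.17), Plk1 (1.15) and Ccna2, the S-phase cyclin (0.95, adjusted p = 0.0262). Pcna, the replication clamp, gave 0.06 (adjusted p = 0.907). Mki67, a proliferation marker, had 630.3, 723.03, 666.1 and 52.7 CPM in CML 1, 2, 3 and 5 and 808.5 to 1419 CPM in CML-TKI LSCs. CML 5 was far below its group for this gene, and the log2 fold change of 1.17 did not pass (adjusted p = 0.262). The summed level of the list was 3446 CPM in CML 5, 4075 to 4329 CPM in CML 1 to 3 and 4692 to 6507 CPM in CML-TKI LSCs. Like Mki67, Top2a was far lower in CML 5 (134.3 CPM) than in CML 1, 2 and 3 (407.9, 439.3 and 421.7 CPM). CML 5 was the lowest CML library for only 10 of the 24 genes, so its lower sum does not describe the list as a whole.

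Since p21 is the best-known p53 target, 15 other p53 target genes were read beside Cdkn1a. Of 13 tested, 0 passed the threshold by edgeR (3 had an unadjusted p under 0.05, and DESeq2 and limma-voom each called 1 downward), and their median log2 fold change was -0.21. The 3 with an unadjusted p under 0.05 all lay downward: Ei24 (log2 fold change -0.74), Btg2 (-1.02) and Bbc3 (-1.68). Ei24 and Bbc3 were lower in every CML-TKI library. An upward call of 1 gene appeared without a filter, without CML 5 and without CML-TKI 1, and a downward call of 1 gene without CML-TKI 4. The untested genes of the list were Phlda3 and Pmaip1, named after their values were seen. Phlda3 had 1.74 to 3.57 CPM in the CML libraries and 109.2 CPM in CML-TKI 1, but 0.93, 0 and 1.56 CPM in CML-TKI 2, 3 and 4. Pmaip1, which encodes the cell death protein Noxa, had 1, 1, 1 and 5 counts in CML 1, 2, 3 and 5 (0.14 to 0.69 CPM) and 9, 42, 6 and 11 counts in CML-TKI 1 to 4 (1.71, 13.02, 6.58 and 2.86 CPM), higher in every CML-TKI library. Mdm2, whose product degrades p53, gave 0.46 (adjusted p = 0.355). The summed level of the list was 455.3 to 470.2 CPM in CML and 388.6 to 527.2 CPM in CML-TKI LSCs.

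**Figure D4:**
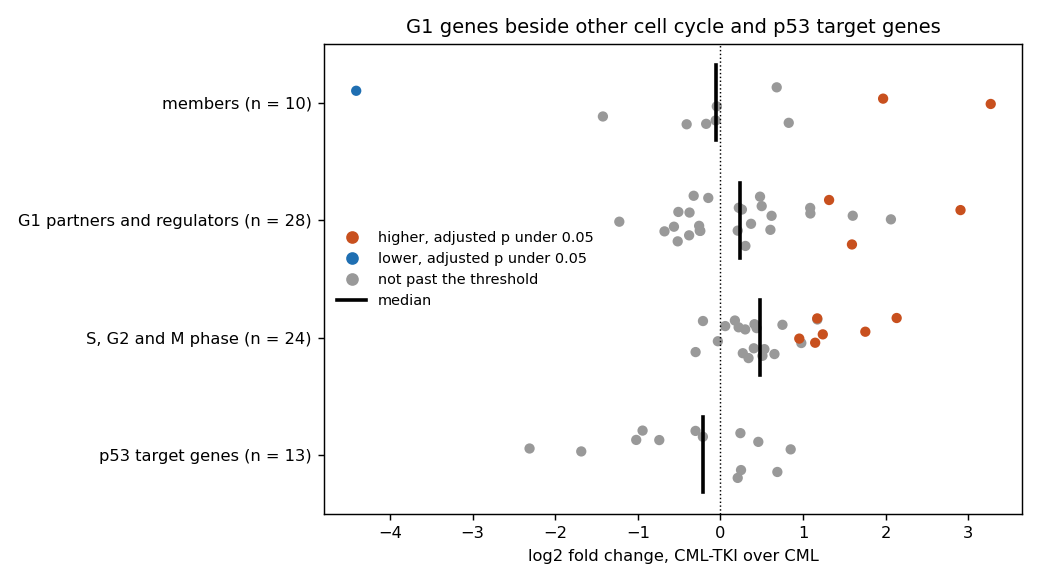
Each point is the log2 fold change (CML-TKI relative to untreated CML) of a tested gene in 4 lists (vertical scatter is only for visibility), with the median as a black bar. The S, G2 and M phase list has its median at 0.47 and 6 orange points past the threshold, and the p53 target list has none.

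Among 9306 tested genes whose average log2 CPM reached 3, the gene nearest in pattern to each member was found by the root mean square difference of centered log2 CPM over the 8 libraries. Closest were Anapc11 to Cdk4 (0.077), Lims1 to Cdk6 (0.11), Dele1 to Cdkn1b (0.12) and Scamp3 to Ccnd3 (0.12). G6pdx lay nearest Ccne1 (0.15), Zfand5 nearest Ccnd2 (0.15) and Gins2 nearest Cdkn2c (0.16). The more variable Cdkn1a (Tnfaip1, 0.40), Cdkn1c (Mdfi, 0.40) and Ccnd1 (Ppic, 0.43) had no gene as near among these candidates. Cdkn1a and Cdkn1c were themselves below that average, so nearer genes at their own level could not be found.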

How the data were processed

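Estimated counts per gene were deposited by the authors without normalization, after alignment of paired reads to mm10 with STAR 2.6.1d and quantification to RefSeq transcripts in Partek Flow (version 8.0 in the submitters' processing notes). The table has 15576 rows, 5 of them without a count. Columns were matched to labels by group and number, and the CML column named 5, a number in no label, was used by group alone. The labels' description field repeats 1 library name for CML replicates 1 and 4 and for all CML-TKI replicates, but the columns hold different values. Counts were rounded and tested with edgeR 4.0.16 in R 4.3.3 (TMM, filterByExpr with a minimum count of 10 and total of 15, robust quasi-likelihood test, Benjamini-Hochberg adjustment over all tested genes, threshold 0.05). DESeq2 1.42.0, limma-voom (limma 3.58.1), other normalizations and filters, thinning, leaving out libraries and a block were alternatives. Scripts were tested on simulated data. Depth limits low genes most in CML-TKI 3, and floors of 3 counts cover counting error only. Strand use was not stated, so antisense overlaps are unresolved. Intervals use the standard error and the fit's degrees of freedom. Levels per kilobase use GENCODE M21 transcripts.

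Members and lists were chosen with earlier results of these data known. Named were all 10 members, at most 10 called genes of each of 3 pathway lists plus 9 fixed genes, the sort genes, markers at 0 throughout a group and each member's nearest gene. Cdkn2a, Cdkn2b, Phlda3, Pmaip1, Ei24, Btg2, Bbc3, Top2a, Rn45s and these markers were added after their values were seen.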

Additional observations from a re-analysis of the deposited data

Results flagged for a closer look

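By Dixon's criterion for 4 values, 1 library stood far from its 3 fellows in 8 of 34 measures of the G1 genes, where chance gives about 1 in 20, and many of the measures share genes. In 4 of them CML 5 stood apart from CML 1 to 3: log2 CPM of Ccne1 (3.35), and the log2 ratios Ccnd1/Ccnd2 (-2.07), Ccnd3/Ccnd2 (-0.67) and Cdk6/Cdk4 (1.11). CML-TKI 1 stood apart in Cdk6/Cdk4 (1.01) and in log2 CPM of Cdkn1c (0.95), where the 3 other CML-TKI libraries had no count and share 1 value set by the prior count, so that any count would have stood apart, which leaves 7 measures. CML-TKI 4 had the highest log2 CPM of Cdkn1b (5.49), and CML-TKI 3 the highest log2 ratio of Cdkn2c to Cdkn1b (1.63).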

How the results depend on the processing

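Ccne1, Cdkn1a and Cdkn1c kept their directions under every alternative that tested them. Cdkn1a and Cdkn1c were not tested when an average log2 CPM of 3 was required or with counts thinned to the smallest total, where 1 of the 10 genes passed each time. It was 5 with limma-voom, 0 with CML 1 to 3 summed to 1 library (3 with an unadjusted p under 0.05) and 2 to 4 with each library left out. Over all genes the count was 2157 by DESeq2, 2563 by limma-voom, 122 with CML 1 to 3 summed and 505 (without CML 1) to 2504 (without CML-TKI 1). The G1 partners gave 8 by DESeq2, 9 by limma-voom, 6 thinned, 0 with CML 1 to 3 summed (6 unadjusted) and 2 to 7 (without CML-TKI 1) with each library left out. The S, G2 and M phase genes gave 0 with CML 1 to 3 summed (7 unadjusted) and 1 (without CML 1) to 6 with each library left out, with 3 without CML 2 and 2 without CML 3. The p53 targets gave 1 upward without a filter, 1 downward by DESeq2 and by limma-voom, and 0 to 1 with each library left out.

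The replicate block for the numbers 1 to 3 called 193 genes against 589 in the same 6 libraries without it. Of the 10 members it called 0 (5 with an unadjusted p under 0.05), against 2 in those 6 libraries without it. It called 1 of the G1 partners and 0 of the S, G2 and M phase genes (8 unadjusted). Deviations of same-numbered libraries correlated at -0.02, 0.15 and 0.09. Libraries numbered 2 and 3 correlated best with their own number, and those numbered 1 did not. With correlations this small over 3 libraries of each group, the check cannot decide whether the numbers pair mice.

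Some signs turned. Cdk4 gave 0.027 with the replicate block, and with each library left out it ran from -0.40 to 0.021. Cdk6 gave 0.11 with CML 1 to 3 summed and ran from -0.21 to 0.14, and Cdkn1b gave 0.015 with total counts, 0.17 with limma-voom and 0.043 thinned and ran from -0.29 to 0.034. The group difference in the Cdk6/Cdk4 log2 ratio ran from -0.25 (without CML 5) to 0.54 (without CML-TKI 1) and that of Ccnd1/Ccnd2 from -1.74 (without CML-TKI 1) to 0.32 (without CML-TKI 3, which had no Ccnd1 count). The Cdkn1c/Cdkn1b difference of -4.11 was -5.63 with a prior count of 0.5 and -2.59 thinned, since zero counts enter through the prior. No cause was tested for the other changes.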

Other observations

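CML 5 and CML-TKI 1 came from different groups and shared, in the G1 genes, the lowest Cdk6 and the highest Cdk4, Ccnd1 and Cdkn1c of their groups. For other G1 genes they lay at opposite ends of their groups. CML 5 had the lowest Ccnd2 and the highest Ccnd3 and Ccne1 of its group, and CML-TKI 1 the highest Ccnd2 and the lowest Ccnd3 and Ccne1. They also differed in Mki67, with 52.7 CPM in CML 5 and 808.5 CPM in CML-TKI 1, and in stem cell markers, with a summed 1114 and 426.6 CPM.

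The CML libraries were not alike in their spread. The biological coefficient of variation was 28.04% over all 4, 11.02% among CML 1 to 3 and 69.2% among the CML-TKI libraries. Chi-square per degree of freedom, with reads taken as independent molecules, was 3.91 to 5.94 for pairs among CML 1 to 3 and 94.3 to 97.7 for pairs with CML 5. It sets the libraries against counting error alone. Rn45s was not removed for it and made up 38.3% of the counts of CML 5 and 20.2% to 23.1% of those of CML 1 to 3.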
